A study of Homo sapiens with 13 samples.

Results

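The comparison described here is that of untreated TE-7 cells at 24 hr with untreated TE-7 cells at 6 hr. TE-7 is an established human cell line labelled as esophageal epithelium and grown in RPMI medium with fetal calf serum. The study asked how these cells respond to IL-13 (interleukin-13), a cytokine of type 2 immunity given at 100 ng/ml, and its controls were sampled at 2, 6 and 24 hr, so that they form a time course of their own. The 2 groups compared are the control without IL-13 at 24 hr and the control without IL-13 at 6 hr, each of 1 library of total RNA. The control at 2 hr and the cells given IL-13 for 24 hr and for 6 hr, each again with 1 library, are set beside them, and 2 of the 13 samples of the series form the comparison itself. The labels do not say when the medium was changed, how dense the cells were, or whether the libraries came from separate cultures.

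Levels are RPKM, reads scaled to gene length in kilobases and to megareads mapped. A gene was compared where it reached an RPKM of 1 in at least 1 of the 2 controls and spanned at least 300 bp, which left 12430 of the 23637 genes in the tables. These genes were chosen on level and span, and a gene could enter through its level in 1 control alone. Of the genes at least 2-fold higher at 24 hr, 481 were under 1 RPKM at 6 hr. Of those at least 2-fold lower, 154 were under 1 RPKM at 24 hr. The list counts and medians below include such genes. The ratio of 24 hr over 6 hr was taken on log2(RPKM + 0.1), a scale that shrinks changes in low genes, and centred on the median gene. That median lay 0.23 log2 units above zero, which is a 1.17-fold higher RPKM at 24 hr, and all centred ratios are relative to it. Genes are called higher or lower where the centred ratio reached 2-fold.

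Cultured squamous epithelial cells pass from growth to differentiation as they crowd and use up their medium. In the growing state they make ribosomes and chaperones, copy their DNA, and lay down and attach to a matrix of laminins and collagens. In the differentiating state they make suprabasal keratins, desmosomes, tight junctions and defence proteins. Fresh serum also sets off a short burst of immediate early transcription factors, which then shut each other down. The genes of these programs are described below by their roles.

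The labelled cell type was checked first. Of 12 markers of esophageal squamous cells, 11 were compared, and the keratin KRT5 had 2200 RPKM at 24 hr and 1729 RPKM at 6 hr. The squamous lineage factors TP63 and SOX2 had 230 and 49.2 RPKM at 24 hr, against 81.7 and 16.4 RPKM at 6 hr. IVL, the cornified envelope protein involucrin, was the marker not compared, with 0.76 RPKM at 24 hr and 0.0153 RPKM at 6 hr. Markers of blood, endothelial and fibroblast cells were low. The 19 leukocyte and blood markers summed to 5.39 RPKM at 24 hr and 9.08 RPKM at 6 hr, with ITGAM, CD3D, CD79A, CPA3 and MS4A1 among those listed at 0 in both. The 10 endothelial markers summed to 1.43 RPKM in each control, and the 12 fibroblast markers to 8.81 RPKM at 24 hr and 4.73 RPKM at 6 hr. Of the 22 columnar markers, which summed to 2271 RPKM at 24 hr and 2154 RPKM at 6 hr, 7 were listed at 0 in both, among them CDX2, TFF1, TFF3 and MUC6, while the keratin KRT18 and the secreted protein disulfide isomerase AGR2 were plentiful. AGR2 had 261 RPKM at 24 hr and 55.6 RPKM at 6 hr and KRT18 had 241 and 422 RPKM, and both passed the 2-fold rule, in opposite directions. The 6 columnar markers compared had a median of 304 RPKM at 24 hr and 471 RPKM at 6 hr. Other columnar markers were thus more plentiful than AGR2 and KRT18 in both controls. The 25 brain markers summed to 100.00 RPKM at 24 hr and 112 RPKM at 6 hr. SLC1A3, a glutamate transporter with 56.3 RPKM at 24 hr and 21.6 RPKM at 6 hr, and the tubulin TUBB3, with 17 and 62.9 RPKM, made up most of that.

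Depth was read from the steps between low values. The control at 24 hr held 13.6 M reads (megareads) in a single read set, and the control at 6 hr appeared to be the mean of read sets of 15.7 and 15.3 M. At that depth 1 RPKM in a gene of 1 kb is 13.6 reads at 24 hr, so values under 1 RPKM rest on few reads. The controls at 2 and 6 hr had 359 identical values above 0 and a common step, so they probably have reads in common, and the 2 hr library is shown as context and not as separate support. The columns of the 24 hr libraries, control and treated alike, carry the same prefix, which the 2 and 6 hr columns lack. The prefix holds a date-like number and, after the name of the cell line, what may be a passage number. Time in culture and any other difference in how the 24 hr libraries were made cannot be told apart.

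Genes with different levels were numerous. At 24 hr 1420 genes (11.4% of those compared) were higher and 1097 (8.83%) were lower, so that 20.2% differed at least 2-fold. In bulk RNA, a different share of cells in a given state and a different RNA level per cell cannot be told apart. Without centring, 2022 genes were higher and 677 lower, and the share of differing genes that were higher went to 74.9%, against 56.4% with centring. With centring, that share was 50.1% at a minimum of 5 RPKM and 51.4% with a pseudocount of 1, so the excess of higher genes depends on the settings. Of the higher genes, 345 differed at least 4-fold and 20 at least 16-fold, while 156 of the lower genes differed at least 4-fold and 12 at least 16-fold. The median of the higher genes was 7.16 RPKM at 24 hr and 1.85 RPKM at 6 hr, and 481 of them were under 1 RPKM at 6 hr. The lower genes had a median of 10.3 RPKM at 24 hr and 23.4 RPKM at 6 hr. These levels chose the genes, and a lower gene cannot be under 1 RPKM at 6 hr, so the medians are a description only. In the control at 2 hr the medians were 2.36 RPKM for the higher and 20.7 RPKM for the lower genes. The 24 hr control lay above both earlier controls for 1393 of the 1420 higher genes and below both for 1092 of the 1097 lower genes. These genes were chosen on 24 hr against 6 hr, and the 2 hr library probably has reads in common with 6 hr. These counts were therefore largely fixed by the choice and are no separate support.

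**Figure D1:**
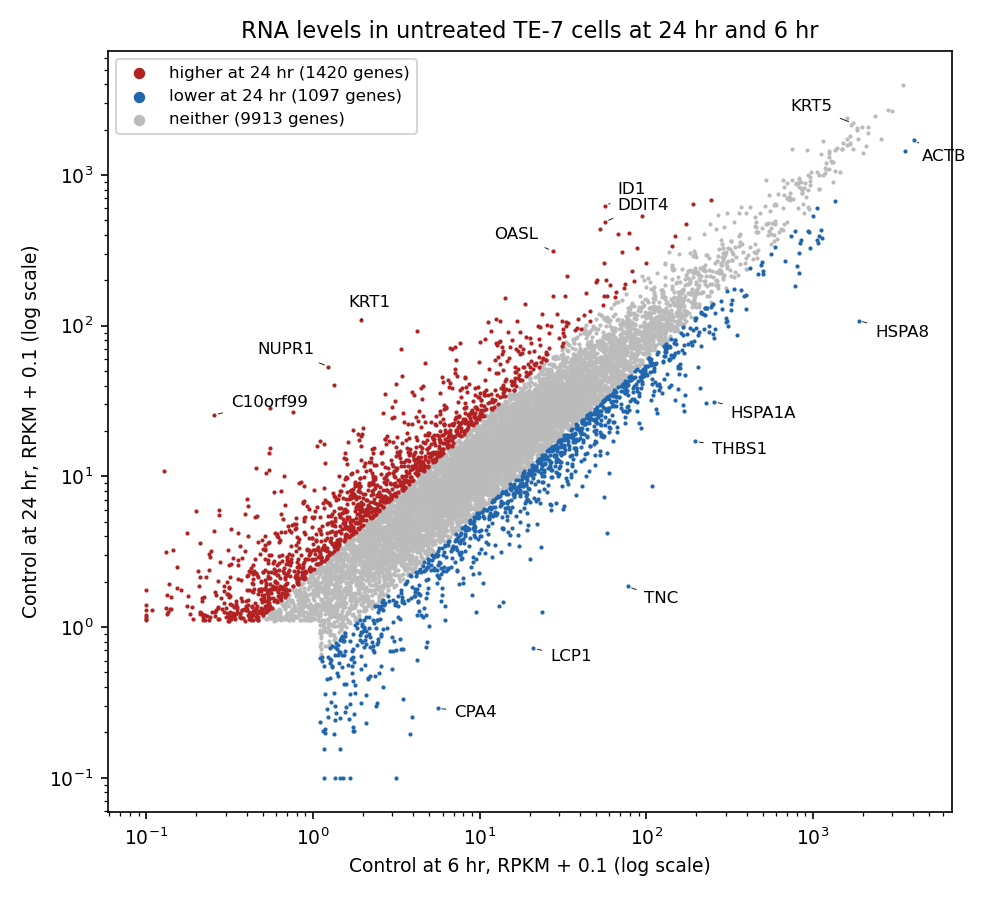
RNA levels of the 12430 genes compared, with the control at 24 hr (RPKM + 0.1, log scale) plotted against the control at 6 hr (RPKM + 0.1, log scale), 1 point per gene. Red points are the 1420 genes higher at 24 hr and blue points the 1097 lower; the largest differences above the band are at low 6 hr levels, as C10orf99 with 25.5 RPKM at 24 hr and 0.156 RPKM at 6 hr, and blue points reach high 6 hr levels, as HSPA8 with 108 RPKM at 24 hr and 1878 RPKM at 6 hr.

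With 1 library on each side the comparison itself has no replicate check. The same step in time was measured in cells given IL-13, with no library in common, and the time effect over both pairs was tested with limma on all 12243 genes that reached 1 RPKM in 2 or more of the 4 libraries. That fit has 1 residual degree of freedom, and its p-values measure how well the step in time repeated without and with IL-13. The later libraries of both pairs carry the same column prefix, so a difference in how they were made would repeat as well. The fit therefore cannot tell time from such a difference. At a Benjamini-Hochberg adjusted p under 0.05 limma called 4033 genes higher (32.9%) and 4008 lower (32.7%), so passing it is common and says little of any gene on its own. Below, a gene is said to have risen or fallen where it passed both the 2-fold rule in the controls and limma, which 1300 genes (10.5%) did upward and 1054 (8.48%) downward. Adjusted p-values given below are from limma with Benjamini-Hochberg adjustment.

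The 12 genes with the largest rises had at most 1.85 RPKM at 6 hr, and a ranking by ratio favours such low levels. Among genes reaching 5 RPKM, C10orf99 (chromosome 10, 85933554 to 85945050, plus strand, hg19), a small secreted epithelial protein, had 25.5 RPKM at 24 hr and 0.156 RPKM at 6 hr. THEM5, a mitochondrial acyl-CoA thioesterase, had 10.7 RPKM at 24 hr and 0.0286 RPKM at 6 hr. KRT1 (chromosome 12, 53068520 to 53074191, minus strand, hg19), a keratin of the suprabasal epidermis, had 109 RPKM at 24 hr and 1.85 RPKM at 6 hr, a 58.7-fold difference with an adjusted p of 0.00171 by limma. The other 9 of the 12 largest were GPNMB, NUPR1, YPEL3, ALDH1A1, KLF9, LOC728978, CYP2W1, HPGD and KLHL24. GPNMB, a lysosomal glycoprotein, had 28.2 RPKM at 24 hr and 0.45 RPKM at 6 hr. NUPR1, a stress-induced chromatin protein, had 53.4 RPKM at 24 hr and 1.14 RPKM at 6 hr. ALDH1A1, which makes retinoic acid, had 40.5 RPKM at 24 hr and 1.24 RPKM at 6 hr, and KLF9, a glucocorticoid-responsive transcription factor, had 5.79 and 0.0988 RPKM. All 12 had limma adjusted p-values between 0.00115 and 0.00539, and 0.00115 was the smallest of any gene. In the IL-13 pair KRT1 reached 27.8 RPKM at 24 hr against 1.13 RPKM at 6 hr, and C10orf99 3.62 against 0.0735 RPKM, lower levels than in the controls at the same times.

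The genes with the largest falls were of several kinds. TNC (chromosome 9, 117781854 to 117880536, minus strand, hg19), the matrix protein tenascin-C, had 1.76 RPKM at 24 hr and 77.2 RPKM at 6 hr, which is 43.9-fold lower at 24 hr. LCP1, the actin-bundling protein L-plastin, had 0.622 RPKM at 24 hr and 20.9 RPKM at 6 hr. HSPA8 (chromosome 11, 122928200 to 122932901, minus strand, hg19), the constitutive cytosolic HSP70 chaperone, had 108 RPKM at 24 hr and 1878 RPKM at 6 hr. The other 9 of the 12 were CPA4, BCYRN1, FST, GAL, THBS1, NT5E, CD3EAP, HSPA1A and ANXA3. FST, the activin antagonist follistatin, had 4.1 RPKM at 24 hr and 58.4 RPKM at 6 hr, and GAL, the neuropeptide galanin, had 8.53 and 108 RPKM. CD3EAP, a subunit of RNA polymerase I, had 1.29 RPKM at 24 hr and 12.9 RPKM at 6 hr. THBS1, the matricellular protein thrombospondin-1, had 17 RPKM at 24 hr and 196 RPKM at 6 hr. BCYRN1, a noncoding RNA derived from Alu repeats whose reads can map to many places, had 1.16 and 23.5 RPKM and is uncertain. All 12 fell, with limma adjusted p-values between 0.00115 and 0.0104. In the IL-13 pair TNC had 2.25 RPKM at 24 hr and 153 RPKM at 6 hr.

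Gene lists were then read by role. Each is described by the number of its members that passed and by its median centred log2 ratio, and the median over all 12430 genes was 0.01. Over all genes compared 10.5% rose and 8.48% fell, and list counts near these shares say little about a list.

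**Figure D2:**
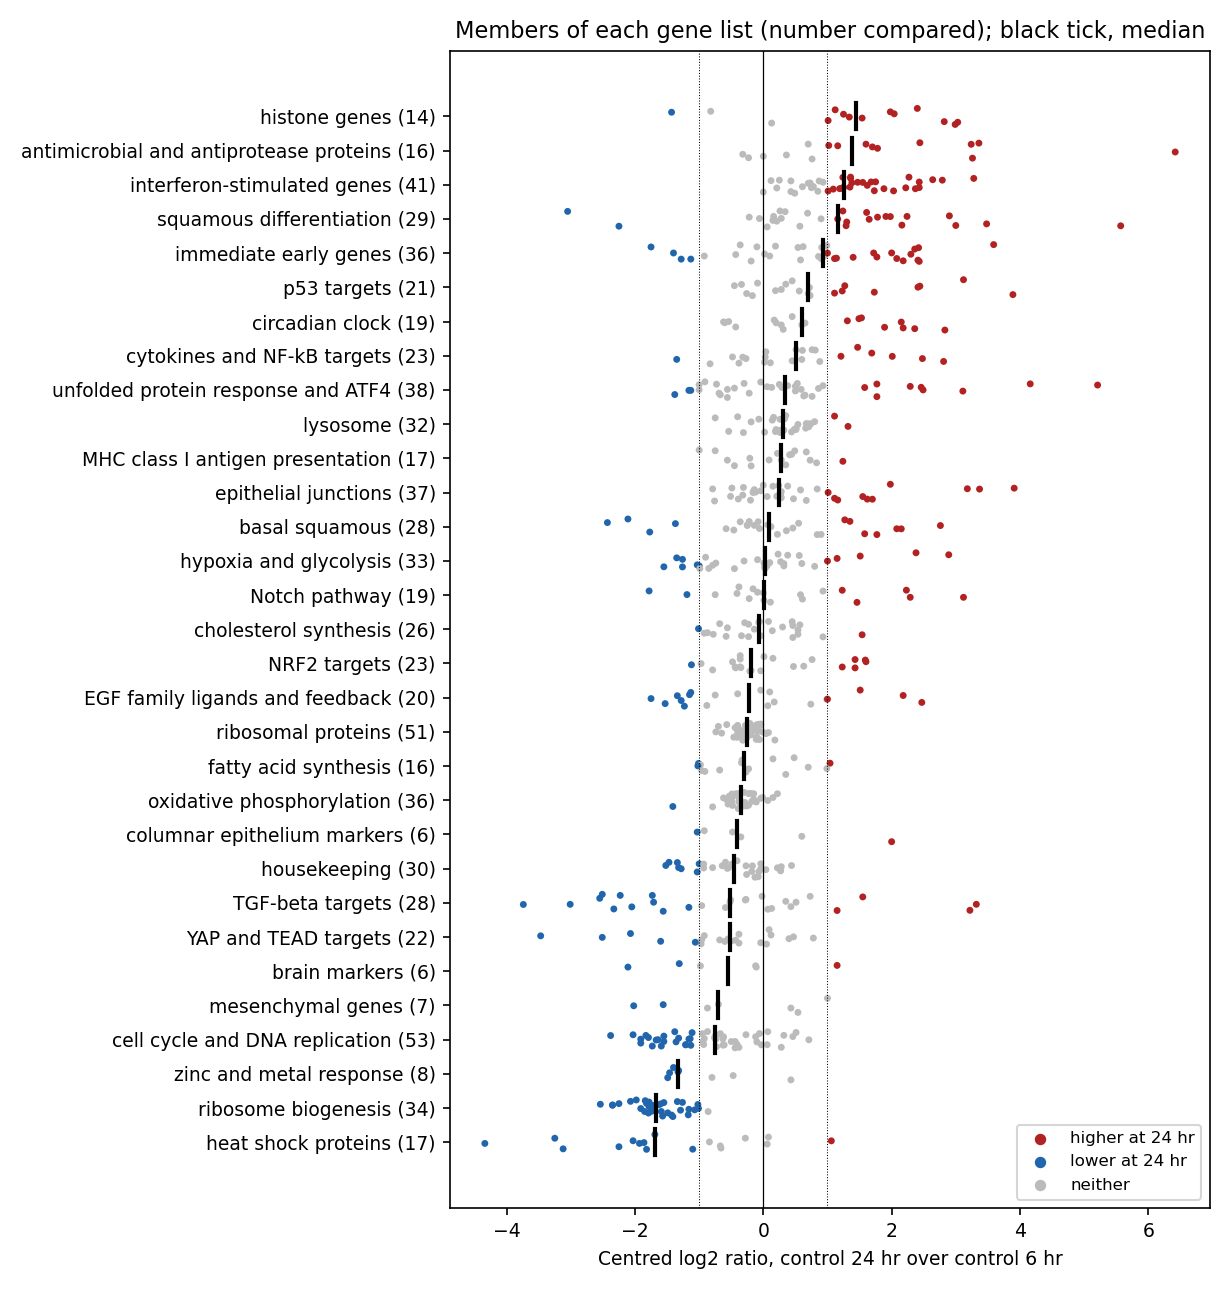
Centred log2 ratio of the control at 24 hr over the control at 6 hr (horizontal axis) for every compared member of each gene list with at least 5 compared members, 1 point per gene and a black tick at the list's median; red points are higher and blue points lower at 24 hr, and dotted lines mark 2-fold. Lists run from histone genes at the top, with a median of 1.44, to heat shock proteins at the bottom, with a median of −1.69, and the ribosome biogenesis list lies almost wholly left of the lower limit.

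Ribosome biogenesis was lower as a block. Ribosomes are assembled in the nucleolus, where RNA polymerase I copies the ribosomal DNA and a large set of factors cuts, modifies and folds the precursor. All 34 members of the list were compared, and 33 fell, against 8.48% of all genes. The remaining member, NHP2, a subunit of H/ACA particles that guide pseudouridylation, had 45.8 RPKM at 24 hr and 71.1 RPKM at 6 hr, a centred log2 ratio of −0.86. The list's median was −1.67, and its geometric mean was 22.3 RPKM at 24 hr and 59.7 RPKM at 6 hr. The catalytic subunits of RNA polymerase I, POLR1A and POLR1B, had 6.12 and 9.13 RPKM at 24 hr, against 15.5 and 23.7 RPKM at 6 hr. The nucleolar proteins NCL and NPM1 had 326 and 415 RPKM at 24 hr, against 964 and 943 RPKM at 6 hr. UTP20, a scaffold of the small-subunit processome, had 3.37 RPKM at 24 hr and 17.2 RPKM at 6 hr, the largest fall of the list. BOP1 and PES1, partners in large-subunit maturation, had 26.4 and 37.1 RPKM at 24 hr, against 116 and 119 RPKM at 6 hr. The 51 ribosomal protein genes themselves did not pass: 0 were higher and 0 lower at least 2-fold, with a median of −0.26 and geometric means of 929 RPKM at 24 hr and 951 RPKM at 6 hr. At 2 hr the biogenesis list had a geometric mean of 52.5 RPKM, near the 6 hr level.

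Promoter sequences are shown where members of a list fell or rose together, from 250 bases before to 50 bases after the start, as given by RefSeq for GRCh38.p14, a build other than that of the RNA tables. Of the 12430 genes, 8853 matched a promoter in the table. The E-box CACGTG, the letters bound by MYC and related factors, was searched on both strands. It was in 7.45% of all 27195 promoters and in 10 of the 26 list members with a promoter (38.5%). Over all genes compared it was in 8.48% of promoters of higher genes, 16.4% of those of lower genes and 9.83% of the rest. UTP20 (chr12:101279855-101280154, plus strand) and RRP9 (chr3:51941855-51942154, minus strand), a U3 particle protein with 9.94 RPKM at 24 hr and 43.7 RPKM at 6 hr, show a match in capitals 10 and 5 bases before the start.
UTP20: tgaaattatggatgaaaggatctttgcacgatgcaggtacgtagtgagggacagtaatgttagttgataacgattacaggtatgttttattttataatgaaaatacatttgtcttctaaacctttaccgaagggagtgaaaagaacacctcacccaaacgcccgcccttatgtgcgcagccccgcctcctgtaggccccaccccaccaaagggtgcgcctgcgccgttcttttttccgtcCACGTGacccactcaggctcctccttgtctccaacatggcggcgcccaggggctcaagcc
RRP9: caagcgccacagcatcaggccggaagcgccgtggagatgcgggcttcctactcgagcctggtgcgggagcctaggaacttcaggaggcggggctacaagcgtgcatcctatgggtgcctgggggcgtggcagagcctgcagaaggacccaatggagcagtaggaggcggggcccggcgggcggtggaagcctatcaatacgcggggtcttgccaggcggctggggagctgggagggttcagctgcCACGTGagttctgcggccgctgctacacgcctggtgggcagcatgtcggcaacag

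MYC itself, which drives ribosome synthesis in many cells, had 180 RPKM at 24 hr and 100 RPKM at 6 hr and did not pass the 2-fold rule. A match of letters is a description of the sequence and not of binding.

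Heat shock proteins and other chaperones were lower. These proteins fold new polypeptides and are coupled to the rate of protein synthesis as well as to stress. All 17 members were compared and 10 fell, with a median of −1.69. The HSP70 family members HSPA1A and HSPA1B had 31.2 and 30.7 RPKM at 24 hr, against 255 and 229 RPKM at 6 hr, but their near-identical sequences can share reads, so the split between them is uncertain. The HSP90 genes HSP90AA1 and HSP90AB1 had 356 and 392 RPKM at 24 hr, against 1074 and 1082 RPKM at 6 hr. The mitochondrial chaperonin genes HSPD1 and HSPE1 had 247 and 82.5 RPKM at 24 hr, against 804 and 256 RPKM at 6 hr. The factor that governs them, HSF1, had 89 RPKM at 24 hr and 73.3 RPKM at 6 hr, and the small heat shock protein HSPB1 had 1385 and 1124 RPKM. Neither passed the 2-fold rule. CRYAB, the small chaperone alpha-B crystallin, was the member above the limit in the controls, with 1.39 RPKM at 24 hr and 0.509 RPKM at 6 hr, and it was too low for limma. Levels at 2 hr, with 1628 RPKM for HSPA8, were close to those at 6 hr.

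The heat shock element was searched as GAANNTTC, which reads the same on both strands, and was in 6.89% of all promoters and in 6 of the 15 chaperone promoters in the table (40%). It was in 4 of the 10 chaperone promoters of genes lower at 24 hr, also 40%. Over all genes compared it was in 5.9% of promoters of higher genes, 6.63% of lower genes and 4.29% of the rest. HSPA8 (chr11:123062087-123062386, minus strand) and the HSP40 cochaperone DNAJA1 (chr9:33025023-33025322, plus strand), which had 86.3 RPKM at 24 hr and 351 RPKM at 6 hr, each hold 2 matches, in capitals.
HSPA8: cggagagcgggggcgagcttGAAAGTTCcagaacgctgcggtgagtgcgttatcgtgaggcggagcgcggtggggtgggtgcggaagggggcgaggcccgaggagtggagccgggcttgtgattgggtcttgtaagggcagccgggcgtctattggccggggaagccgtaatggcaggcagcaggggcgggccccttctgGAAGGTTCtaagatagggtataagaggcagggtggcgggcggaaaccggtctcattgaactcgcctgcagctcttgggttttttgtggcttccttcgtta
DNAJA1: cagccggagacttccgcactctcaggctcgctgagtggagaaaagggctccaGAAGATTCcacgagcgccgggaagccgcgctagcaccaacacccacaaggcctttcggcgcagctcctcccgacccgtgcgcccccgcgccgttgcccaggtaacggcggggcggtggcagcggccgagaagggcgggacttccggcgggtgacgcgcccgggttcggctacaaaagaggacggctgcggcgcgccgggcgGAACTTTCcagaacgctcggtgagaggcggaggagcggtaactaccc

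In the cell cycle list the genes of DNA replication fell and those of mitosis mostly did not pass. All 53 members were compared; 21 fell and 0 rose, with a median of −0.76. All of MCM2 to MCM7, the subunits of the replicative helicase, fell, and MCM7 had 112 RPKM at 24 hr and 303 RPKM at 6 hr. PCNA, the sliding clamp of DNA polymerases, had 159 RPKM at 24 hr and 399 RPKM at 6 hr. RRM2, which makes deoxynucleotides, had 37 RPKM at 24 hr and 112 RPKM at 6 hr. CCNE1, the cyclin that starts S phase, had 2.99 RPKM at 24 hr and 10.7 RPKM at 6 hr, and CCND1, the serum-responsive cyclin D1, had 45 and 83.1 RPKM. The proliferation marker MKI67 had 20.5 RPKM at 24 hr and 40.7 RPKM at 6 hr. Mitotic genes were closer in level: TOP2A had 85.3 RPKM at 24 hr and 58.3 RPKM at 6 hr, the kinesin KIF11 had 33.2 and 30.4 RPKM, and the kinase PLK1 had 135 and 193 RPKM. The division of the list into replication and mitosis was made after the values were seen. In 38 of the 53 genes the 6 hr level was the highest of the 3 controls, and the geometric mean ran 38.9, 48 and 31.4 RPKM at 2, 6 and 24 hr.

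Of the 41 cell cycle genes with a promoter, 31 held CCAAT on either strand (75.6%, against 35.7% of all promoters), and 14 of the 16 that were lower did so. Over all genes compared CCAAT was in 37.6% of promoters of higher genes, 39.7% of lower genes and 36.5% of the rest. The letters TTTGAA of the cell cycle genes homology region, a motif of mitotic promoters, were in 14 of the 41 and in 1 of the 16 lower ones. They were in 15.4% of all promoters, but in 9.87% of promoters of higher genes, 9.23% of lower genes and 9.06% of the rest.

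The hypoxia and glycolysis list was mixed. Of its 33 compared members 5 rose and 6 fell, against 10.5% and 8.48% of all genes, with a median of 0.02. The members that fell were the enzymes LDHA, PFKP, HK2, ENO1, GPI and PGK1; LDHA, lactate dehydrogenase A, had 270 RPKM at 24 hr and 677 RPKM at 6 hr. The members that rose were DDIT4, VEGFA, BNIP3L, NDRG1 and the enolase ENO2, itself a glycolytic enzyme. DDIT4, an inhibitor of the growth kinase complex mTORC1, had 487 RPKM at 24 hr and 56.3 RPKM at 6 hr, and VEGFA, a vascular growth factor, had 90.6 and 14.8 RPKM. Genes often taken as constant were on the lower side too. Of 30 housekeeping genes 7 fell and 0 rose, with a median of −0.45, and the cytoplasmic actins ACTB and ACTG1, which can share reads, had 1697 and 1452 RPKM at 24 hr, against 4023 and 3568 RPKM at 6 hr. GAPDH, with 1732 RPKM at 24 hr and 2565 RPKM at 6 hr, did not pass the 2-fold rule. Lipid synthesis and respiration showed few members past the limit. In cholesterol synthesis 1 of 26 genes rose and 1 fell, and in fatty acid synthesis 1 of 16 rose and 2 fell. Of 36 oxidative phosphorylation genes 1 fell. Over all genes 10.5% rose and 8.48% fell.

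Targets of transforming growth factor beta were lower more often than higher. Transforming growth factor beta (TGF-beta) drives epithelial cells to make matrix through SMAD factors. Of 28 compared TGF-beta targets, 11 fell and 3 rose, with a median of −0.52. The collagen IV chains COL4A1 and COL4A2 of the basement membrane had 22.5 and 31.2 RPKM at 24 hr, against 90.9 and 87.5 RPKM at 6 hr. Fibronectin FN1 had 31.4 RPKM at 24 hr and 79.3 RPKM at 6 hr. The ligand TGFB2 had 0.615 RPKM at 24 hr and 3.38 RPKM at 6 hr, and the feedback protein PMEPA1 had 7.42 and 37.6 RPKM. Most of the list kept declining over the 3 controls. A lower level at each later time was found in 16 of 28 members. It was found in 915 of the 12430 genes and in 265 of the 1097 lower genes. THBS1 had 581, 196 and 17 RPKM at 2, 6 and 24 hr, and the actin-binding protein TAGLN had 77.2, 23.4 and 3.31 RPKM.

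The members that rose belong to the ID family, helix-loop-helix proteins that block differentiation factors and are better known as targets of bone morphogenetic proteins, and to the feedback arm. ID1 had 618 RPKM at 24 hr and 56.6 RPKM at 6 hr, and ID2 had 20.2 and 1.63 RPKM. SKIL, a SMAD corepressor, had 11 RPKM at 24 hr and 4.17 RPKM at 6 hr. ID3 was higher in the controls, with 89.1 RPKM at 24 hr and 25.9 RPKM at 6 hr, and missed the limma threshold with an adjusted p of 0.218. The receptors TGFBR1 and TGFBR2 had 8.54 and 38.5 RPKM at 24 hr, against 7.39 and 39.9 RPKM at 6 hr, and did not pass the 2-fold rule.

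Laminins anchor basal cells to the basement membrane, and the alpha and beta chains measured here differed in their change. LAMA3 had 32.1 RPKM at 24 hr and 149 RPKM at 6 hr and fell, while LAMB3, with 245 and 143 RPKM, did not pass. The integrin subunit ITGB1 and the caveolar protein CAV1 also fell, to 147 and 222 RPKM at 24 hr, against 326 and 820 RPKM at 6 hr. Among 22 compared targets of the growth-control factors YAP and TEAD, 5 fell and 0 rose, against 8.48% and 10.5% of all genes. Their median was −0.52. The ectonucleotidase NT5E fell to 1.37 RPKM at 24 hr, against 13.8 RPKM at 6 hr. CYR61, a classical YAP target, had 25.2 RPKM at 24 hr and 40.9 RPKM at 6 hr and did not pass the 2-fold rule. Metallothioneins, small proteins that bind zinc, were also lower at each later time. Of 8 compared genes of the zinc and metal response 5 fell, with a median of −1.33, and MT2A had 2140, 838 and 356 RPKM at 2, 6 and 24 hr.

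Squamous differentiation genes rose in number but not throughout. In stratified epithelia, cells leaving the basal layer switch keratins and induce the factors ZNF750, GRHL1, GRHL3 and OVOL1. Of 49 genes in the list 29 were compared, and the others stayed under 1 RPKM in both controls or were too short. Of the 29, 15 passed the 2-fold rule upward and 2 downward, of which 13 rose and 1 fell, with a median of 1.16. The suprabasal keratins KRT10, KRT13 and KRT4 had 106, 409 and 4.12 RPKM at 24 hr, against 11.2, 78.3 and 1.38 RPKM at 6 hr. ZNF750 had 40.9 RPKM at 24 hr and 3.05 RPKM at 6 hr, OVOL1 had 38.7 and 4.33 RPKM, and GRHL1 had 16.7 and 2.94 RPKM. TGM1, the transglutaminase that cross-links the cornified envelope, had 53 RPKM at 24 hr and 18.4 RPKM at 6 hr. The envelope proteins EVPL, PPL and SPRR1B did not pass, and PPL had 34.6 RPKM at 24 hr and 28.4 RPKM at 6 hr. KRT80, a keratin of epithelial cells, fell to 2.75 RPKM at 24 hr, against 20.1 RPKM at 6 hr. SPRR2A, a small proline-rich envelope protein, had 0.218 RPKM at 24 hr and 1.19 RPKM at 6 hr and was too low for limma. With a pseudocount of 1 the median of the list was 0.66. Of the 6 compared columnar markers 1 rose, AGR2, with a limma adjusted p of 0.00171, and 1 fell, KRT18; their part in these counts was not tested.

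Genes of the basal layer were mixed. Of 28 compared, 6 rose and 4 fell, against 10.5% and 8.48% of all genes, with a median of 0.10. KRT15, a keratin of quiescent basal cells, had 92.7 RPKM at 24 hr and 11.6 RPKM at 6 hr, and the desmosomal cadherins DSG3 and DSC3 had 90.5 and 67.9 RPKM at 24 hr, against 17.4 and 17 RPKM at 6 hr. The basal keratins KRT5 and KRT14 did not pass, and KRT14 had 287 RPKM at 24 hr and 291 RPKM at 6 hr. The keratins of activated epithelium, KRT6A and KRT17, had 479 and 1054 RPKM at 24 hr, against 565 and 1352 RPKM at 6 hr.

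Of 37 compared genes of epithelial junctions 10 rose and 0 fell, with a median of 0.25, and 13 had ratios below 0. The tight junction claudins CLDN1 and CLDN8 had 152 and 6.94 RPKM at 24 hr, against 14.2 and 0.301 RPKM at 6 hr. The tight junction adaptors TJP3 and CGN had 5.3 and 5.72 RPKM at 24 hr, against 0.348 and 1.43 RPKM at 6 hr. Adherens junction genes did not pass: CDH1, or E-cadherin, had 98.2 RPKM at 24 hr and 104 RPKM at 6 hr, and CTNNB1, or beta-catenin, had 82.6 and 120 RPKM. In the Notch pathway, which promotes leaving the basal layer, 5 of 19 genes rose and 2 fell. Over all genes 10.5% rose and 8.48% fell, and the median of the Notch list was 0.01. The receptor NOTCH3 had 71.9 RPKM at 24 hr and 6.98 RPKM at 6 hr, and the target HES1 had 68 and 21.1 RPKM.

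Defence proteins of the epithelial surface were higher. Of 16 compared antimicrobial and antiprotease genes 10 passed the 2-fold rule upward and 0 downward, of which 8 rose, with a median of 1.38. DEFB1, the constitutive beta-defensin, had 56.4 RPKM at 24 hr and 4.6 RPKM at 6 hr. S100A9, a subunit of calprotectin, had 4.34 RPKM at 24 hr and 1.01 RPKM at 6 hr. The complement protein C3 had 3.21 RPKM at 24 hr and 1.29 RPKM at 6 hr, and the peptidoglycan receptor PGLYRP3 had 1.01 RPKM at 24 hr and was listed at 0 at 6 hr. SERPINB3 and SERPINB4, whose near-identical sequences can share reads, had 4.85 and 1.72 RPKM at 24 hr, against 1.2 and 0.413 RPKM at 6 hr. With a pseudocount of 1 the list's median was 0.74.

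Interferon-stimulated genes were higher across the list without added interferon. These genes are switched on by the ISGF3 complex, which holds STAT2 and IRF9, and many encode sensors and inhibitors of viral RNA. Of 41 compared, 26 rose, against 10.5% of all genes, and 0 fell, with a median of 1.25. The 2′-5′-oligoadenylate synthetase-like protein OASL had 312 RPKM at 24 hr and 27.3 RPKM at 6 hr, and the radical enzyme RSAD2, or viperin, had 32.7 and 4.39 RPKM. The RNA sensors DDX58 and IFIH1 had 65.3 and 14.5 RPKM at 24 hr, against 18 and 3.61 RPKM at 6 hr. The ubiquitin-like protein ISG15 had 679 RPKM at 24 hr and 245 RPKM at 6 hr, and its ligase HERC5 had 46.2 and 7.27 RPKM. STAT2 rose, with 41.7 RPKM at 24 hr and 6.52 RPKM at 6 hr, while IRF9 had 81.7 and 36.7 RPKM and did not pass the 2-fold rule. The 15 members that did not pass had centred log2 ratios between 0.00 for IFITM2 and 0.93 for IRF9. The 6 hr level was the lowest of the 3 controls in 38 of the 41 genes, against 3500 of the 12430 genes. Only a gene with a higher level at 24 hr than at 6 hr can be lowest at 6 hr. A list with many higher genes therefore tends to exceed the share of all genes. Levels were higher at each later time in 3 of the 41, against 399 of the 1420 higher genes. The geometric mean was 24.4, 15.6 and 46.3 RPKM at 2, 6 and 24 hr. Against the 2 hr control in place of 6 hr, the list's median centred ratio was 0.52. Of 17 compared genes of MHC class I antigen presentation, many of which interferon also induces, 1 rose, the immunoproteasome subunit PSMB9. That share was no larger than the 10.5% of all genes, and the median of these genes was 0.28.

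The interferon-stimulated response element was searched as GAAA, any 2 bases and GAAA on both strands and was in 3.65% of all promoters and in 21 of the 33 list members with a promoter (63.6%). It was in 14 of the 22 members that were higher at 24 hr, and in 4.94% of promoters of all higher genes, 1.69% of lower genes and 2.57% of the rest. DDX60 (chr4:168318703-168319002, minus strand), a helicase of the antiviral response that had 108 RPKM at 24 hr and 13.2 RPKM at 6 hr, holds 2 matches, and HERC5 (chr4:88456869-88457168, plus strand) holds 3 on the opposite strand, of which 2 overlap. The matches are in capitals.
DDX60: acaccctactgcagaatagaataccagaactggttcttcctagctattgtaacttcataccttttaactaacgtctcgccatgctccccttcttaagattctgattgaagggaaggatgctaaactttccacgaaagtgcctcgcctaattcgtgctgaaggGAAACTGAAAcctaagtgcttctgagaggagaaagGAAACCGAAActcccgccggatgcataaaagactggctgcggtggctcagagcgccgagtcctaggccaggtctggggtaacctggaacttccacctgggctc
HERC5: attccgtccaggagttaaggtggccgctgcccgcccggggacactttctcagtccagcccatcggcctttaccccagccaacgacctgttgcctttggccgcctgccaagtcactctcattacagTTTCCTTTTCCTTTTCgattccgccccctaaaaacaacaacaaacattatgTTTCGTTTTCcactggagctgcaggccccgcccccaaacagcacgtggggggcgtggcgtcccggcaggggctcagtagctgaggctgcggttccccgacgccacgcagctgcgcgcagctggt

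The kinase pathways that sense unfolded protein and missing amino acids act through ATF4, which induces CHOP (DDIT3), TRIB3 and CHAC1. Of 38 compared genes of the unfolded protein response and ATF4, 9 rose and 3 fell, with a median of 0.33. The members that rose were mainly ATF4 targets. CHAC1, which degrades glutathione, had 70 RPKM at 24 hr and 3.26 RPKM at 6 hr, DDIT3 had 69.5 and 6.77 RPKM, and TRIB3, an inhibitor of AKT signalling, had 215 and 33.2 RPKM. XBP1, a factor of the endoplasmic reticulum stress response, had 200 RPKM at 24 hr and 57.1 RPKM at 6 hr. The chaperones of the endoplasmic reticulum were not higher: HSPA5, or BiP, had 222 RPKM at 24 hr and 280 RPKM at 6 hr, and MANF, CRELD2 and SDF2L1 fell. ATF4 RNA had 563 RPKM at 24 hr and 307 RPKM at 6 hr and did not pass. The letters TGATGNAA of the C/EBP-ATF response element, on either strand, were in 5 of the 31 list members with a promoter (16.1%) and in 3.67% of all promoters. They were in 2 of the 8 members with a promoter that were higher at 24 hr. Over all genes compared they were in 3.11% of promoters of higher genes, 0.91% of lower genes and 1.38% of the rest. CHAC1 (chr15:40953221-40953520, plus strand) holds the match in capitals on the opposite strand.
CHAC1: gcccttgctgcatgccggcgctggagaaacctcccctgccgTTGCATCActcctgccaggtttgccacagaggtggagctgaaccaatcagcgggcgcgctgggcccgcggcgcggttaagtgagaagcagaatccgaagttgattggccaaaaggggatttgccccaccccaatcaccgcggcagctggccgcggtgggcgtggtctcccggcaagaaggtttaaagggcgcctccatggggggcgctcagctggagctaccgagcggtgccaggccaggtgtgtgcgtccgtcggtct

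Targets of p53, a factor that stops division after damage, had 8 of 21 members risen and 0 fallen, with a median of 0.70. TP53INP1, which promotes autophagy and arrest, had 3.52 RPKM at 24 hr and 0.109 RPKM at 6 hr, the growth factor GDF15 had 77.1 and 7.49 RPKM, and the apoptosis inducer BBC3, or PUMA, had 5.96 and 0.854 RPKM. MDM2, which degrades p53, had 15.3 RPKM at 24 hr and 7.99 RPKM at 6 hr and did not pass. The cell cycle inhibitor CDKN1A, or p21, had 112, 12.5 and 48.7 RPKM at 2, 6 and 24 hr, so it was higher at 24 hr than at 6 hr but below its 2 hr level. Among targets of the oxidant sensor NRF2, 5 of 23 rose and 1 fell, against 10.5% and 8.48% of all genes. Their median was −0.19. The aldo-keto reductases AKR1C1, AKR1C2 and AKR1C3, which can share reads, were 3 of the 5, and NFE2L2, the gene of NRF2 itself, had 125 RPKM at 24 hr and 45.7 RPKM at 6 hr. Of 32 compared lysosomal genes 2 rose and 0 fell, a smaller share than the 10.5% and 8.48% of all genes, with a median of 0.31. CTSD, the protease cathepsin D, had 188 RPKM at 24 hr and 74.5 RPKM at 6 hr.

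The circadian clock is a loop in which CLOCK and ARNTL activate the PER and CRY repressors and output factors such as DBP and TEF. Of 19 compared 8 rose and 0 fell, with a median of 0.60. DBP had 13 RPKM at 24 hr and 1.48 RPKM at 6 hr, TEF had 10.8 and 1.99 RPKM, and their competitor NFIL3 had 38.9 and 6.42 RPKM. The period genes PER1, PER2 and PER3 had 2.38, 9.32 and 6.45 RPKM at 24 hr, against 0.755, 2.69 and 1.89 RPKM at 6 hr. The activators CLOCK and ARNTL, with 2.76 and 9.93 RPKM at 24 hr, against 3.2 and 7.55 RPKM at 6 hr, did not pass. Nor did the repressors CRY1 and CRY2, with 9.55 and 5.42 RPKM at 24 hr, against 6.72 and 3.7 RPKM at 6 hr. All 8 that rose were also at least 2-fold higher in the IL-13 pair. The limma fit used that pair too, so this was partly built into the choice and is no separate support. The 3 sampling times are too few to show a cycle.

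Histone genes were mostly higher. Those that are copied with DNA normally lack a poly(A) tail, while a few are also made as polyadenylated RNA in resting cells. Of 14 compared, 11 passed the 2-fold rule upward and 1 downward, of which 10 rose and 1 fell, with a median of 1.44. H1F0, the linker histone of resting and differentiated cells, had 438 RPKM at 24 hr and 53 RPKM at 6 hr. HIST1H2AC, HIST1H2BD and HIST2H2BE had 17.3, 14.1 and 6.4 RPKM at 24 hr, against 1.78, 2.19 and 0.579 RPKM at 6 hr. H2AFX, the variant phosphorylated at DNA breaks, fell to 66.8 RPKM at 24 hr, against 154 RPKM at 6 hr, and H2AFZ, another variant, had 226 and 341 RPKM. Several histone genes are near copies of each other and their levels are uncertain; the labels do not say whether RNA was selected by poly(A).

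Immediate early genes were higher at 24 hr than at 6 hr, and in most of them the 6 hr level was the lowest of the 3 controls. These genes, such as the FOS, JUN and EGR factors, are induced within minutes by serum and growth factors. Of 36 compared, 15 rose and 4 fell, with a median of 0.93. EGR1 had 32.7, 12.7 and 73.8 RPKM at 2, 6 and 24 hr, NR4A1 had 18.6, 1.07 and 16.4 RPKM, and DUSP1, a phosphatase that ends MAP kinase signals, had 32.7, 2.5 and 12.1 RPKM. In 29 of the 36 (80.6%) the 6 hr level was the lowest of the 3. As with the interferon list, a list with many higher genes tends to a high share. The geometric mean ran 27.8, 9.13 and 19.1 RPKM. Against the 2 hr control in place of 6 hr, the list's median centred ratio was −0.82. BTG2, an antiproliferative factor, and KLF4, a factor of barrier differentiation, ended above their 2 hr levels: BTG2 had 10.5, 5.72 and 35.9 RPKM at 2, 6 and 24 hr, and KLF4 had 18.5, 13.1 and 78.9 RPKM. The members that fell were DUSP4, DUSP6, SPRY4 and FOSL1, which are sustained outputs of ERK signalling. FOSL1 had 437, 148 and 65.7 RPKM at 2, 6 and 24 hr, and DUSP4 had 16.1, 4.15 and 1.38 RPKM.

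The 6 hr level was the lowest of the 3 controls in 8 of 20 genes of the list of EGF family ligands and feedback genes (40.00%). It was so in 15 of 23 cytokines and NF-kB targets (65.2%) and in 28.2% of all genes. All genes are not a like baseline, since a gene lowest at 6 hr must be above that level at 24 hr. Centred ratios were above 0 in 9 of the 20 EGF genes and in 17 of the 23 cytokine genes. In the EGF list 4 of 20 rose and 6 fell, against 10.5% and 8.48% of all genes, with a median of −0.22. HBEGF, an EGF receptor ligand, had 12.7, 1.15 and 6.53 RPKM at 2, 6 and 24 hr, and ERRFI1, an inhibitor of the receptor, had 128, 16.6 and 108 RPKM. AREG, another ligand, had 174, 35.7 and 18.8 RPKM and missed limma with an adjusted p of 0.482, and in IL-13 cells it had 35.9 RPKM at 24 hr and 22.8 RPKM at 6 hr. ERBB3, a receptor of the family, had 21.9 RPKM at 24 hr and 6.49 RPKM at 6 hr. Among 23 cytokines and NF-kB targets 5 rose and 1 fell, with a median of 0.51. IL8, a neutrophil chemokine, had 172, 7.15 and 59.3 RPKM at 2, 6 and 24 hr, PTGS2, which makes prostaglandins, had 17.6, 2.61 and 17.5 RPKM, and CXCL1, another neutrophil chemokine, had 50.8, 43.6 and 164 RPKM. IL1B, an inflammatory cytokine, fell, with 57.9, 24.2 and 11 RPKM.

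**Figure D3:**
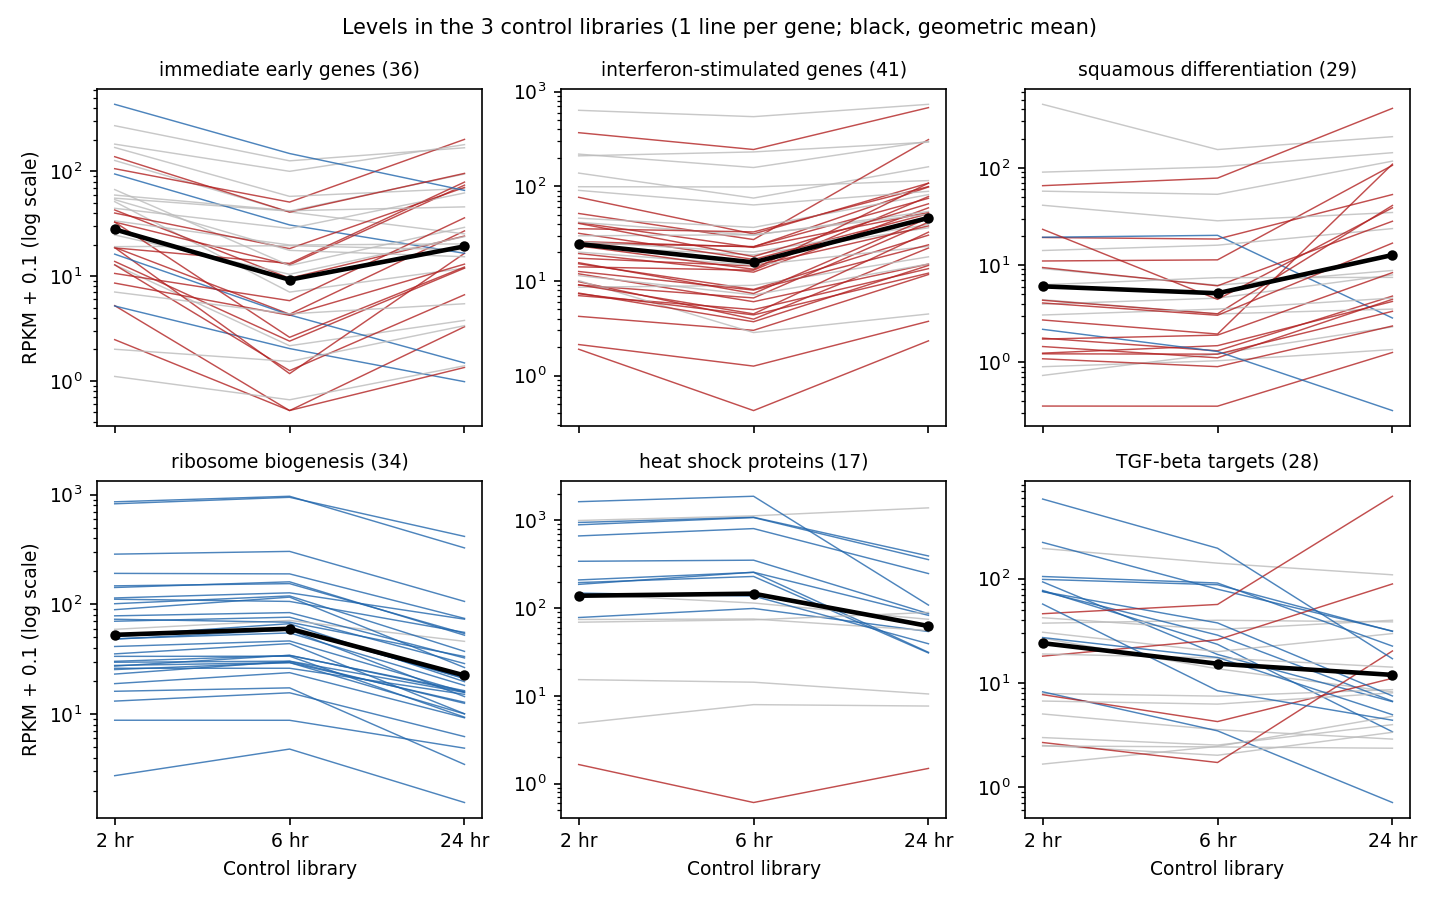
RPKM + 0.1 (log scale) in the control libraries at 2, 6 and 24 hr (categories, not to scale in time) for the compared members of 6 gene lists, with 1 line per gene, red where it was higher and blue where it was lower at 24 hr than at 6 hr, and the geometric mean in black. Immediate early and interferon-stimulated genes dip at 6 hr, with geometric means of 9.13 and 15.6 RPKM there, while ribosome biogenesis genes hold 52.5 and 59.7 RPKM at 2 and 6 hr and have 22.3 RPKM at 24 hr.

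A 2 hr level at least 2-fold above the 6 hr level was found in 311 of all genes compared, of which 143 were among the 1420 higher genes and 42 among the 1097 lower genes. A dip of that size at 6 hr was therefore present in part of the higher group only.

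The step in time was then set beside that in cells given IL-13, a pair in which 1325 of 12376 genes were higher (10.7%) and 912 lower (7.37%). Of the 1420 genes higher in the controls 1048 (73.8%) were also higher in the IL-13 pair, and these were 79.1% of the genes higher there. Of the 1097 lower genes 731 (66.6%) were also lower, and these were 80.2% of those lower there. No gene was called in opposite directions. Ratios had the same sign in 1405 of the higher and 1088 of the lower genes. Over all genes compared, 92.1% of ratios lay within 0.5 log2 units of each other in the 2 pairs, the standard deviation of the difference was 0.32, and Pearson's r and Spearman's rho were each 0.93. These correlations run across genes, which are not independent replicates. Neither the overlap nor the correlations can tell time from a difference in preparation common to the later libraries of both pairs.

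Ribosome biogenesis genes had a median of −1.67 in the controls and −1.32 with IL-13, and 27 of the 33 that fell also passed in the IL-13 pair. Genes that fell had passed limma, which used both pairs, so that count was partly built into the choice. Squamous differentiation genes had medians of 1.16 in the controls and 0.89 with IL-13, and 10 were higher in both. The medians of the ATF4 list were 0.33 in the controls and 0.71 with IL-13, those of heat shock genes −1.69 in each, and those of interferon-stimulated genes 1.25 and 1.14, with 25 members higher in both. No test of the difference between the pairs can be had from 1 library per group. The marker gene of IL-13 action, the eosinophil chemokine CCL26, had 5.51 RPKM at 24 hr and 6.27 RPKM at 6 hr in the controls and did not pass.

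**Figure D4:**
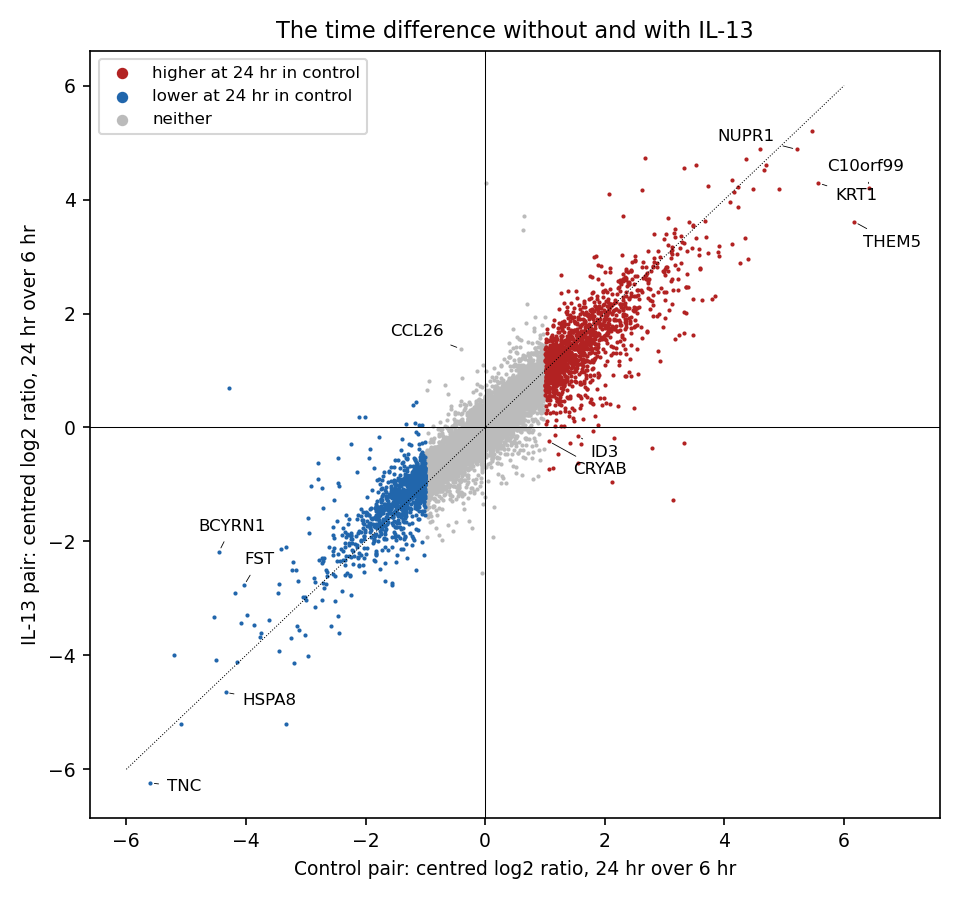
Centred log2 ratio of 24 hr over 6 hr in the IL-13 pair (vertical) against the same ratio in the control pair (horizontal), 1 point per gene, red where the gene was higher and blue where it was lower in the controls; the dotted line marks equal ratios. Points follow the line, with a Pearson's r of 0.93, and CCL26, CRYAB and ID3 lie on opposite sides of zero in the 2 pairs.

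Histone marks at 6 hr, a readout that the choice of genes did not use, were read at the starts of the same genes. H3K4me3, H3K9Ac and H3K27Ac mark active promoters, and the authors' peak lists combine a control and an IL-13 library for each mark, with a mean log2 level called A. The genes that were higher at 24 hr had a listed H3K27Ac peak at their start in 85.9% of cases (1220 of 1420), the lower ones in 89.2% and the rest in 91.7%, and the median A was 6.48, 7.29 and 7.20. Since RNA levels at 6 hr differed between these groups, the shares were also read within bands of 6 hr RPKM. Levels within a band were closer but not equal. From 1 to 5 RPKM the medians of higher, lower and other genes were 2.13, 2.1 and 2.66 RPKM. Above 20 RPKM they were 32.9, 57.1 and 40.9 RPKM. Under 1 RPKM they were 0.425 RPKM for higher and 0.766 RPKM for other genes. Among genes with 1 to 5 RPKM at 6 hr the share with an H3K27Ac peak was 88.9% for the 560 higher genes, 69.1% for the 236 lower genes and 83.1% for the 2373 others. H3K9Ac gave 87.3%, 62.7% and 82.3%, and H3K4me3 gave 79.1%, 56.4% and 78.2%. In this band the marks were listed least often at the lower genes, and the order differed in other bands. Under 1 RPKM, where there is no lower gene, the share was 74% for the 481 higher genes and 78.4% for the others with H3K27Ac, and 58.4% and 67% with H3K4me3. Above 20 RPKM the shares of higher, lower and other genes were 98.7%, 96.1% and 96.8% for H3K27Ac and 88.6%, 94.7% and 95.4% for H3K4me3. These shares are descriptions, with no test.

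Single genes varied. KRT1 and ALDH1A1 had no listed peak of any of the 3 marks at their start at 6 hr, and NUPR1 had H3K27Ac alone, with an A of 4.04. KLHL24 and LOC728978 had all 3, with H3K27Ac at 6.20 and 6.83, while their RNA was at 5.85 and 15.4 RPKM at 24 hr, against 0.172 and 0.451 RPKM at 6 hr. The starts of HSPA8 and THBS1, both plentiful at 6 hr and lower later, had H3K27Ac at 8.36 and 8.94, and LCP1 had no listed peak with 20.9 RPKM.

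**Figure D5:**
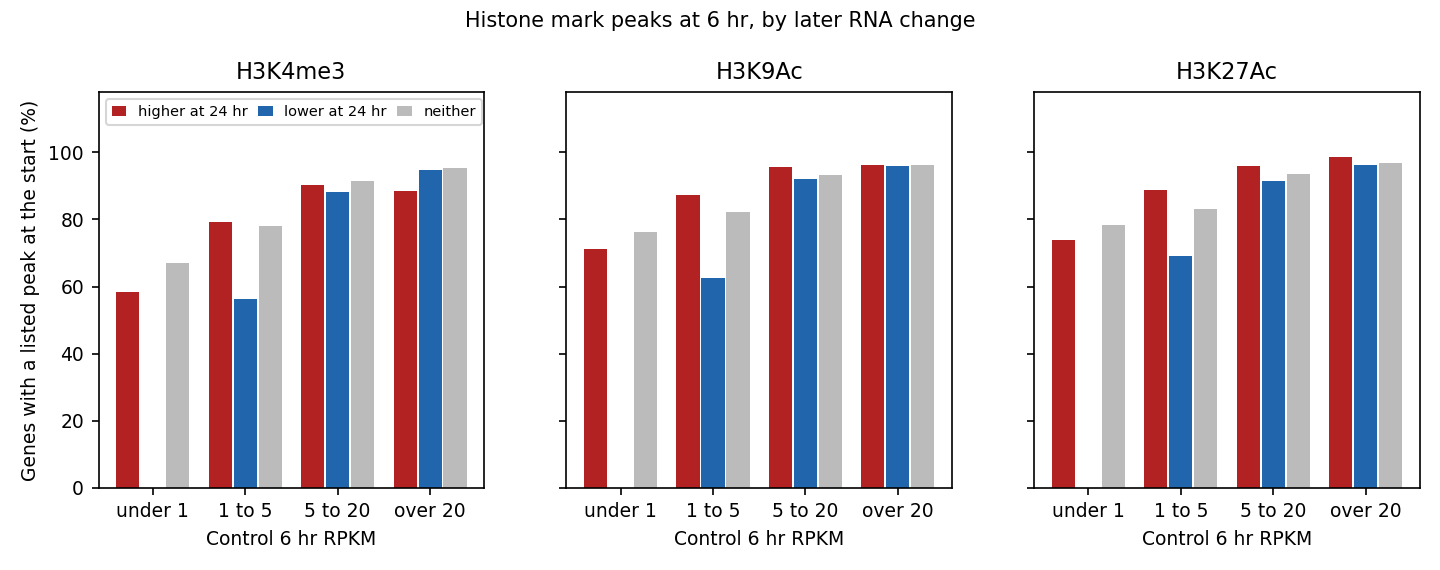
Share of genes with a listed peak of each mark at their start at 6 hr (percent, bars from 0), by the control RPKM at 6 hr and by whether the gene was higher (red), lower (blue) or neither (grey) at 24 hr. No lower gene can be under 1 RPKM at 6 hr, so that bar is missing; between 1 and 5 RPKM the blue bars, at 56.4%, 62.7% and 69.1%, are the lowest of each panel's group.

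The 2-fold limit cuts a continuous range. Just inside it on the higher side were CXADR, with 10.7 RPKM at 24 hr and 4.54 RPKM at 6 hr, PPAPDC2 and ZNF774, and just outside were FAM117A, MIPOL1 and SNAI2, the last with 77.5 and 33.1 RPKM. On the lower side PGK1, with 97.4 RPKM at 24 hr and 167 RPKM at 6 hr, NOL12 and RRM1 were just inside, and ATF5, with 7.22 and 12.4 RPKM, SYNM and UGGT1 were just outside.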

How the data were processed

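RNA was sequenced with single reads from 6 groups of TE-7 cells, 1 library each. RPKM values were deposited by the authors for 23637 genes, per the file headers. TopHat2 2.0.9 and DESeq for RNA, Bowtie 1.0.0 and MACS2 2.0.10.20130712 for ChIP-seq, and build hg19 (GRCh37) are named, per the submitters' processing notes. How reads were assigned to genes, whether strand was used, which annotation served and how read sets were combined is not given in the sources used here, so overlapping and antisense genes may share reads. For each histone mark, the deposited A value is a mean log2 level of the peak, per the file headers. Which library of a mark was treated is not stated, so only A was used, and 6 columns of raw reads were not used. A peak was given to a gene where its listed start lay within 1 bp of the gene's start.

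The log2 ratio of (RPKM + 0.1), control at 24 hr over control at 6 hr, was centred on the median of genes reaching 1 RPKM in either library. A gene differed when the centred ratio was at least 1 in size, the higher RPKM at least 1 and the span at least 300 bp. The 4 libraries of control and IL-13 at 24 and 6 hr were fitted in limma 3.58.1 (R 4.3.3) on log2(RPKM + 0.1) with treatment and time as terms, the 24 hr libraries shifted by their pair's median, and Benjamini-Hochberg adjustment over all 12243 genes tested. The fit was tested on simulated data of 12243 genes. It recovered 84% of log2 changes of size 1 and 98% of those of size 2, with 20 false calls. Far fewer genes changed in the simulation than limma called here, so it is no check on the number called. Its p-values measure the spread between the pairs, which may be technical. Each list was described by counts and medians, with no set test. Depth was read from low values of genes under 300 bp. Python 3.11.15, NumPy 2.4.6, pandas 2.3.3 and matplotlib 3.10.9 were used.

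Genes were named by this rule: the 12 highest and 12 lowest centred ratios among genes that differed and reached 5 RPKM, up to 5 members of each list in each direction, a few fixed genes such as KRT5, TP63, GAPDH and CCL26, and the 3 genes just inside and outside the limit on each side. Other list members are named for their roles and were chosen after their values were seen. Some list members are not reported here by name. The members, lists and rules were chosen with earlier results of these data known. Alternatives were other pseudocounts, RPKM limits, scalings and spans, the 2 hr control and the IL-13 pair.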

Additional observations from a re-analysis of the deposited data

Results flagged for a closer look

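CCL26, the eosinophil chemokine eotaxin-3, had a centred log2 ratio of 24 hr over 6 hr of 1.38 in IL-13 cells and −0.41 in the controls, opposite in sign; it had 166 RPKM at 24 hr and 54.8 RPKM at 6 hr with IL-13. CRYAB, the small chaperone alpha-B crystallin, had ratios of −0.24 with IL-13 and 1.06 in the controls, at levels of at most 1.39 RPKM at these times. ID3, a helix-loop-helix inhibitor, had ratios of −0.15 with IL-13 and 1.55 in the controls; with IL-13 it had 58.3 RPKM at 24 hr and 55.6 RPKM at 6 hr. ID3 differed in sign on the centred scale only, since its RPKM was above the 6 hr value at 24 hr in both pairs. AREG, an EGF receptor ligand that the report also names, had ratios of 0.45 with IL-13 and −1.15 in the controls. Each of these passed the 2-fold rule in 1 pair and had the opposite sign in the other, and with 1 library per group the difference between the pairs was not tested.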

How the results depend on the processing

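Of the alternatives tried for the counts, those that moved them beyond 1.5 times were a pseudocount of 1, with 877 higher genes, a minimum of 5 RPKM, with 865 higher genes, and no centring, with 677 lower genes. Lower genes numbered 829 with a pseudocount of 1 and 861 with a minimum of 5 RPKM. With no minimum RPKM 1848 genes were higher and 1643 lower, with trimmed mean scaling 1336 and 1195, and with the 2 hr control as the earlier library 1143 and 1057. A list median was said to move where it changed by at least a limit set from single genes. That limit was the standard deviation of the difference between the control and IL-13 pairs, divided by the square root of 2. With the 2 hr control 16 of 34 list medians moved. Among these the medians of immediate early genes (−0.82), cytokines (−0.63), basal squamous genes (−0.31), ATF4 genes (−0.17), MHC class I genes (−0.12) and junctions (−0.07) were below zero. With a minimum of 5 RPKM 6 list medians moved, and the EGF list went to 0.07; in the IL-13 pair 6 moved. The limma counts ranged from 2961 to 5578 higher and from 2732 to 4270 lower genes over its settings, the lowest higher count coming with no minimum RPKM and the lowest lower count with no shift. In the IL-13 pair the centred ratios of CCL26 (1.38), CRYAB (−0.24) and ID3 (−0.15) changed sign, as did AREG (0.45) and, among genes past the limit in neither pair, KRT5 (−0.42). With the 2 hr control as the earlier library, 12 named genes changed sign: CDKN1A (−1.49), CRYAB (−0.44), EGR2 (−0.97), ERRFI1 (−0.54), HBEGF (−1.25), IGFBP3 (0.20), IL8 (−1.83), JAG1 (−0.26), NDRG1 (−0.25), NR4A1 (−0.48), PHLDA1 (−0.82) and PTGS2 (−0.30). The cause was not tested. No paired analysis was possible because the labels give no replicate numbers beyond 1 library per group; the limma fit matched the 2 times by treatment only, and leaving a library out leaves no residual spread. Depth limits the lowest genes: 7 of the higher genes were listed at 0 at 6 hr and 6 of the lower genes at 24 hr, and no fold is given for these.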
